A study of Mus musculus with 14 samples.

Results

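The glycolysis and pyruvate metabolism genes were 40 genes named by their symbols and roles, and not by a threshold on their levels: glucose transporters, the enzymes from glucose to lactate, the lactate transporters, the enzymes that carry pyruvate into the mitochondrion and oxidize it, the pentose phosphate enzymes, and 3 regulators. All 40 were among the 24091 genes of the count table, and all 40 passed the filter on low counts that left 12248 genes to test. They were compared in T cells sorted from the spleens of 2 groups of mice, 1 library per mouse. The chronic phase chronic myeloid leukemia (CP CML) group was 8 Mir142+/+BCR-ABL mice, and the blast crisis (BC CML) group was 6 Mir142-/-BCR-ABL mice. Both groups carried the BCR-ABL oncogene under a tetracycline-off switch (SCLtTA/BCR-ABL mice), and both had BCR-ABL induced for 3 weeks. All mice were CD45.2 C57BL/6 animals of 6 to 10 weeks and of both sexes. Mir142 was missing from every cell of the BC CML mice, and not from T cells alone. No leukemia-free mice were compared here, so a difference between the groups could come with the loss of Mir142, with the stage of disease or with both, and these cannot be told apart. The animal numbers in the sample descriptions start alike within a genotype and differently between genotypes, so anything else that those series of animals do not share cannot be told apart from genotype either.

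Glycolysis cuts glucose into pyruvate in the cytosol. Pyruvate is then reduced to lactate and exported, or enters the mitochondrion, where the pyruvate dehydrogenase complex turns it into acetyl-CoA unless pyruvate dehydrogenase kinases switch the complex off. T cells at rest lean on mitochondrial oxidation and turn toward lactate production when they are activated, under the transcription factors Myc and HIF-1. The study set T cell metabolism beside T cell function, and the comparison here asks which steps of this pathway differed in transcript level between BC CML and CP CML T cells.

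The gene that was removed makes a pair of mature microRNAs with different seeds, the bases 2 to 8 that pair with target transcripts. They are shown here because their loss defines the BC CML group (RefSeq, GRCm38.p6, plus strand, chr11:87756903-87756925 for the 3p and chr11:87756867-87756887 for the 5p strand), with the seed in capitals.
miR-142a-3p: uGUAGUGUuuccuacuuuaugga
miR-142a-5p: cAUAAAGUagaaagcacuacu
Reads at the Mir142 gene (chr11:87756864-87756927 in the count table, mm10) checked the genotype. They numbered from 302 to 650 in the 8 CP CML libraries and 0 in each of the 6 BC CML libraries. For counting error alone, a count of 0 allows up to 3 reads there, or 0.154 to 0.187 CPM. CPM are read counts scaled to the library total after normalization between libraries. An mRNA library reads the precursor transcript and not the mature microRNAs.

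The libraries held 15703702 to 19914531 counted reads in CP CML and 16145537 to 19399720 in BC CML. Cd3e, part of the T cell receptor complex, was at 404 ± 25.6 CPM (SD, n = 8) and 410 ± 18.1 CPM (SD, n = 6) and was not called. Of 11 T cell markers 5 rose and 2 fell (sums of 4123 to 4789 CPM in CP CML and 5157 to 5476 CPM in BC CML). Of the same complex, Cd3g rose by 0.59 on the log2 scale and Cd247 fell by 0.32, each with no overlap between the groups. Values after ± are SDs over these 8 and 6 mice throughout. Markers of T cell subsets differed. Cd4 fell by 0.73 on the log2 scale and Cd8a rose by 0.87, while Cd8b1, the other CD8 chain, was not called (0.07, adjusted p = 0.35). All 8 naive T cell markers fell (sums of 4919 to 6275 CPM in CP CML and 2702 to 3875 CPM in BC CML), 10 of 12 effector T cell markers rose and 1 fell (754 to 931 and 1558 to 2140 CPM), and 1 of 12 cycling cell markers fell. Markers of other cells were also higher in BC CML. Of the myeloid markers 15 of 17 rose, and their summed level ran from 74.6 to 733 CPM in CP CML and from 859 to 2263 CPM in BC CML. Of the B cell markers 7 of 8 rose (sums of 59.3 to 178 and 104 to 513 CPM), and 2 of 6 tested erythroid markers rose (151 to 188 and 167 to 216 CPM). All 7 tested of 8 NK cell markers rose (105 to 148 and 330 to 489 CPM). The NK marker Klra8 was at 0.15 ± 0.11 CPM in CP CML, with at most 5 reads in any library. In BC CML it was at 15.8 ± 3.43 CPM. Klra8 rose by 6.73 on the log2 scale, against 1.28 to 2.01 for the other tested NK markers. Whether Klra8 follows NK cells or something else that differs between the series of animals was not tested. Slc2a3, Hk2, Tpi1, Gapdh and Ldhb are on chromosome 6, as is Klra8, and whether that bears on their values was not tested. None of the defining markers Cd3e, Lyz2, S100a8, Cd79a, Hbb-bs and Mki67 was at 0 in any library. BC CML mouse 6 had the highest myeloid and B cell sums, and BC CML mouse 5 the highest cycling cell sum (1003 CPM, against 574 to 735 CPM in the other BC CML mice and 609 to 792 CPM in CP CML). The sample description of mouse 5 alone ends in RP, the meaning of which is not stated. In bulk RNA, fewer cells of a type and less RNA per cell cannot be told apart. A marker can also be expressed by more than 1 of these cell types, so the effector and NK lists do not separate those cells.

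Across the pathway, the changes past 0.5 on the log2 scale fell on the genes Hk3, Aldoc, Slc16a3 and Pdk1. In BC CML, the pyruvate dehydrogenase kinase gene Pdk1 fell by more than 1 on the log2 scale, the lactate dehydrogenase gene Ldha fell, and the phosphofructokinase genes Pfkp and Pfkm rose, each with no overlap between the groups. The lactate exporter gene Slc16a3 also rose with no overlap, and the hexokinase gene Hk3 rose with overlap. By edgeR's quasi-likelihood test (Benjamini-Hochberg adjusted p below 0.05 over all tested genes), 17 of the 40 genes rose, 7 fell and 16 were not called. That is 60% of these genes, against 65.2% of all tested genes (32.6% higher and 32.7% lower). These calls stood beside the lower naive and higher effector and myeloid marker sums, whose part in them was not tested. Without BC CML mice 5 and 6, which had the highest cycling and myeloid sums, 11 rose and 8 fell (47.5% called, against 62% of all tested genes in that fit); Slc2a1, Slc2a3, Aldoa, Pfkfb4, Pdk3, Pgd and Hif1a lost their call, and Pgk1 and Ldhb were called as lower.

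The changes were small for most members. The median size of the log2 fold change, whatever its sign, was 0.15 over the 40 genes and 0.28 over all tested genes, and the median signed change was 0.09 against -0.01. Only 4 members, or 10%, were called with a change of at least 0.5 (2 up, 2 down), against 28.5% of all tested genes. The groups did not overlap for 6 members, or 15% (4 above and 2 below), against 36.9% of all tested genes (19.3% above and 17.6% below). The 40 genes were also more abundant than the typical tested gene (median average log2 CPM of 5.88 against 4.85). Their summed level was 5275 ± 314 CPM (SD, n = 8) in CP CML and 5325 ± 376 CPM (SD, n = 6) in BC CML, and that of the 15 enzymes from Gpi1 to Ldhb was 2563 ± 44.8 CPM and 2609 ± 193 CPM. Of the 15-enzyme sum, the highest value was in BC CML mouse 5 (2970 CPM), and the other 5 BC CML mice were between 2452 and 2672 CPM, against 2513 to 2633 CPM in CP CML.

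**Figure D1:**
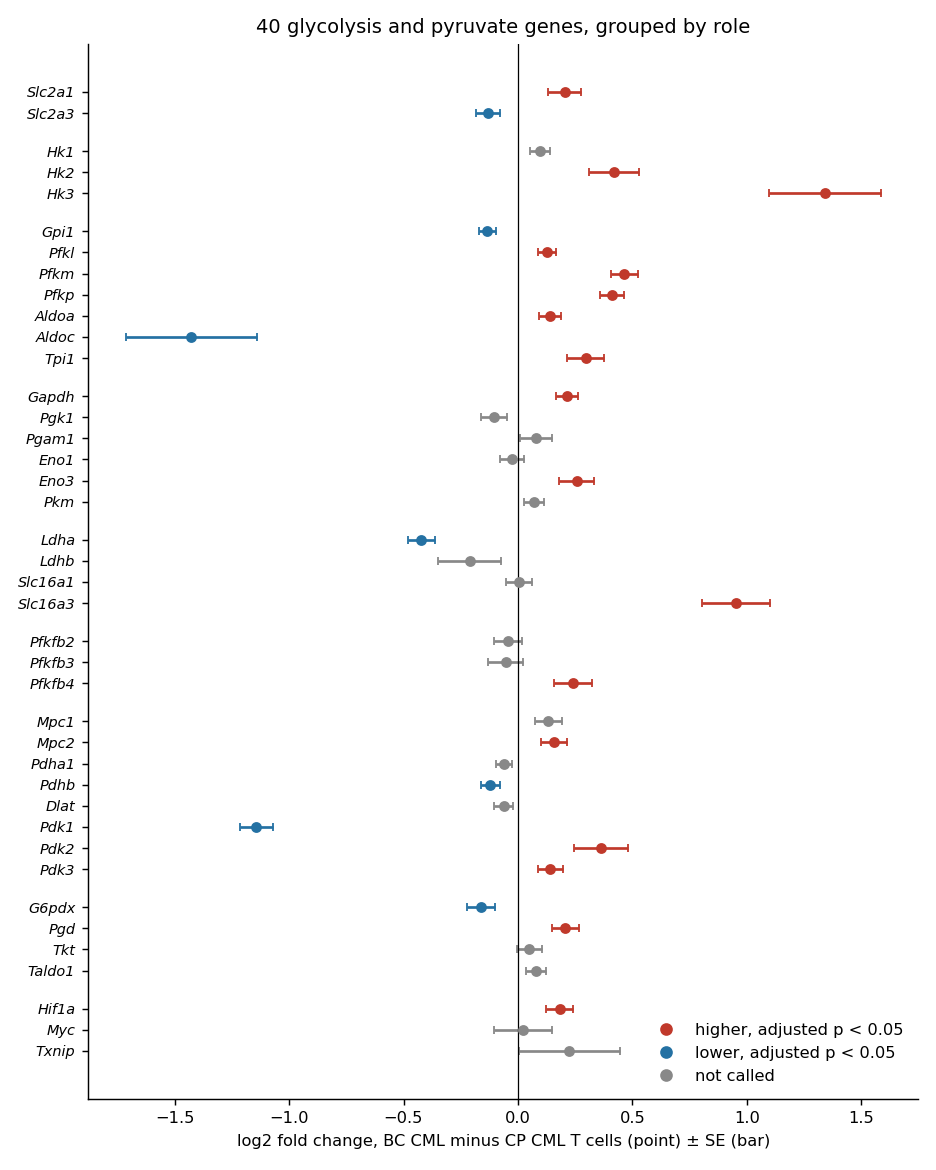
Log2 fold change of each of the 40 genes in spleen T cells, BC CML minus CP CML, with its standard error as a bar; genes are grouped by role from glucose uptake at the top to regulators at the bottom, and colour gives the call. Most points lie within 0.5 of 0, with Hk3 (1.34) and Slc16a3 (0.95) to the right and Aldoc (-1.43) and Pdk1 (-1.14) to the left.

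Glucose uptake showed opposite, small changes in its 2 transporter genes. Slc2a1 (GLUT1), the transporter that T cells raise on activation, ran from 29.7 to 41.0 CPM in CP CML (median 33.6) and from 32.3 to 42.8 CPM in BC CML (median 40.5). The groups overlapped, and Slc2a1 rose by 0.20 on the log2 scale (SE 0.07, adjusted p = 0.018). Slc2a3 (GLUT3), the high-affinity transporter of lymphocytes and neurons, was at 84.6 ± 4.62 CPM and 77.2 ± 6.73 CPM and fell by 0.13 (adjusted p = 0.034). Both calls lie close to the threshold. Without BC CML mouse 5, the adjusted p was 0.052 for Slc2a1 and 0.083 for Slc2a3, and that of Slc2a3 was 0.0502 to 0.070 without any 1 of CP CML mice 4, 5 and 6 and BC CML mice 2, 3 and 6. Per kilobase, with the gene length that the count table gives, Slc2a1 made up 50.5 ± 3.36% of the summed level of the pair in CP CML and 56.3 ± 3.34% in BC CML. That length is not stated to be that of 1 transcript, and with the longest protein-coding transcript of each gene (GENCODE M21), a length chosen after seeing the data, the shares were 33.0 ± 2.98% and 38.3 ± 3.21%. Levels and shares per kilobase use the table's length here unless the transcript is named; for all 22 shares of isoform genes within their families, the groups overlapped or stood apart alike with both lengths.

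Hexokinases phosphorylate glucose and so hold it in the cell. Hk1, the housekeeping isoform, was at 192 ± 13.1 CPM in CP CML and 206 ± 7.46 CPM in BC CML and was not called (log2 fold change 0.10, adjusted p = 0.060), though it passed without CP CML mouse 5 (0.013) or mouse 6 (0.030). Hk2, the inducible isoform, was at 8.88 ± 0.53 CPM and 11.9 ± 2.47 CPM and rose by 0.42 (SE 0.11, adjusted p = 0.0028). BC CML mouse 1 (7.93 CPM) lay below every CP CML mouse for Hk2, and mouse 5 (15.5 CPM) was the highest. Hk3, an isoform known from myeloid cells, ran from 1.80 to 6.29 CPM in CP CML (median 3.50) and from 5.38 to 14.6 CPM in BC CML (median 9.34). It rose 2.53-fold (log2 fold change 1.34, SE 0.24, adjusted p = 0.00016), with CP CML mouse 8 reaching into the BC CML range.

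Hk3 and the myeloid markers were both higher in BC CML. CP CML mouse 8 had both the highest Hk3 and the highest myeloid sum of its group (733 CPM), CP CML mouse 4 both the lowest, and BC CML mouse 6 both the highest of all (14.6 and 2263 CPM). BC CML mouse 1 had the lowest of its group for both (5.38 and 859 CPM), while other mice did not keep the order (BC CML mouse 4 had 9.93 CPM of Hk3 and mouse 5, with the higher myeloid sum, 9.59 CPM). The part of myeloid cells in the Hk3 result was not tested. Per kilobase, Hk1 was 90.3 ± 1.52% of hexokinase in CP CML and 84.6 ± 3.41% in BC CML, and Hk3 was 3.99 ± 1.53% and 8.71 ± 2.80%. With transcript lengths Hk3 was 2.40 ± 0.94% and 5.38 ± 1.81% of hexokinase.

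Upper glycolysis, from glucose 6-phosphate to the triose phosphates, held 5 genes that rose and 2 that fell. Over all tested genes 32.6% were called higher and 32.7% lower, and the counts of each later role stand beside the same shares. Phosphofructokinase 1, which commits the sugar to glycolysis, had all 3 isoform genes higher in BC CML. Pfkp, the platelet type, ran from 168 to 185 CPM in CP CML (median 177) and from 193 to 255 CPM in BC CML (median 240.4). No BC CML mouse reached down to the CP CML range, and Pfkp rose by 0.41 (SE 0.05, adjusted p = 2.5e-06). Pfkm, the muscle type, ran from 15.0 to 19.0 CPM (median 17.2) and from 21.9 to 26.3 CPM (median 23.8). It too was without overlap and rose by 0.46 (SE 0.06, adjusted p = 2.4e-06). Pfkl, the liver type, rose by 0.13 (adjusted p = 0.0082). Pfkp, Pfkm and, further on, Ldha are given in full because of their values, outside the rule that chose the other members so described. Summed per kilobase, phosphofructokinase was at 58.0 ± 1.71 CPM per kb in CP CML and 74.1 ± 5.69 CPM per kb in BC CML, with Pfkp at 66.6 ± 0.90% and 69.1 ± 1.89% of it.

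Beside these, the isomerase gene Gpi1 was at 350 ± 11.3 CPM and 319 ± 17.7 CPM and fell by 0.13 (adjusted p = 0.0046). Aldoa, the main aldolase, rose by 0.14 (adjusted p = 0.015), and Tpi1, which interconverts the triose phosphates, rose by 0.30 (SE 0.08, adjusted p = 0.0037). Tpi1 was highest in BC CML mouse 5 (87.8 CPM), with the other BC CML mice at 57.2 to 74.0 CPM and the CP CML mice at 50.3 to 59.3 CPM. Aldoc, the brain-type aldolase, fell 2.69-fold (log2 fold change -1.43, SE 0.29, adjusted p = 0.00031), from 0.89 to 2.38 CPM in CP CML (median 1.82) to 0.31 to 1.19 CPM in BC CML (median 0.60). The groups overlapped, and its count was at most 46 reads in any library. Aldoc, Eno3, Slc16a3 and Pdk2 are on chromosome 11, as is Mir142, and whether that bears on their values was not tested. Per kilobase Aldoc was 0.41 ± 0.15% of aldolase in CP CML and 0.13 ± 0.05% in BC CML.

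Lower glycolysis, from glyceraldehyde 3-phosphate to pyruvate, had 2 of 6 genes that rose and none that fell. Gapdh, the dehydrogenase of this stage, ran from 405 to 444 CPM in CP CML (median 428) and from 457 to 590.0 CPM in BC CML (median 482). The groups did not overlap, and Gapdh rose by 0.21 (SE 0.05, adjusted p = 0.00080). BC CML mouse 5 stood above its group, and without mice 5 and 6 the change was 0.15 (adjusted p = 0.0016). Eno3, the muscle-type enolase, rose by 0.26 (SE 0.08, adjusted p = 0.0079). Pgk1 (-0.10), Pgam1 (0.08), Eno1 (-0.03) and Pkm (0.07), which encode the remaining steps to pyruvate, were not called. Pgk1 fell by 0.16 without BC CML mouse 5 (adjusted p = 0.0048). Processed copies of these genes lie elsewhere in the genome, and their counts are uncertain to that extent: of all windows of the transcript as long as 1 read, 78% for Gapdh, 67% for Pgk1, 58.8% for Eno1 and 39.7% for Pgam1 also occur in transcripts of other genes. Outside this stage the largest shares were 23.9% for Pfkfb2, 19.5% for Mpc1 and 16% for Pfkp.

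Of the 4 lactate genes, the dehydrogenase gene Ldha fell and the exporter gene Slc16a3 rose. Ldha (chr7:46845804-46855627, mm10), whose enzyme turns pyruvate into lactate, ran from 445 to 511 CPM in CP CML (median 479) and from 303 to 424 CPM in BC CML (median 345). Every BC CML mouse lay below every CP CML mouse, and Ldha fell by 0.42 on the log2 scale (SE 0.06, adjusted p = 7.1e-06). BC CML mouse 5 was the highest of its group here too. Ldhb, the heart-type subunit, was at 15.2 ± 2.70 CPM and 13.1 ± 3.05 CPM and was not called (-0.21, adjusted p = 0.19), although without BC CML mouse 6 it fell by 0.32 (adjusted p = 0.040). Summed per kilobase, lactate dehydrogenase was at 259 ± 11.9 CPM per kb in CP CML and 195 ± 22.3 CPM per kb in BC CML, and Ldha was 95.5 ± 0.74% and 94.8 ± 1.17% of it.

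Slc16a3 (MCT4), a lactate exporter of strongly glycolytic cells, ran from 2.76 to 3.88 CPM in CP CML (median 3.08) and from 4.93 to 9.48 CPM in BC CML (median 5.37). The groups did not overlap, and Slc16a3 rose 1.93-fold (log2 fold change 0.95, SE 0.15, adjusted p = 2.2e-05). BC CML mouse 5 set its upper end, and without mice 5 and 6 the log2 fold change was 0.72 (adjusted p = 8.3e-05). MCT4 is also known from myeloid cells. Mouse 6, with the highest myeloid sum, was second (6.32 CPM), and the part of myeloid or cycling cells was not tested. Slc16a1 (MCT1), the more abundant transporter, was at 54.9 ± 3.80 CPM and 55.1 ± 4.35 CPM, a log2 fold change of 0.00 with SE 0.06. Per kilobase Slc16a3 was 8.98 ± 0.75% of the pair in CP CML and 15.8 ± 2.83% in BC CML, with no overlap between mice. With transcript lengths the shares were 5.53 ± 0.48% and 10.05 ± 1.94%, again with no overlap.

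**Figure D2:**
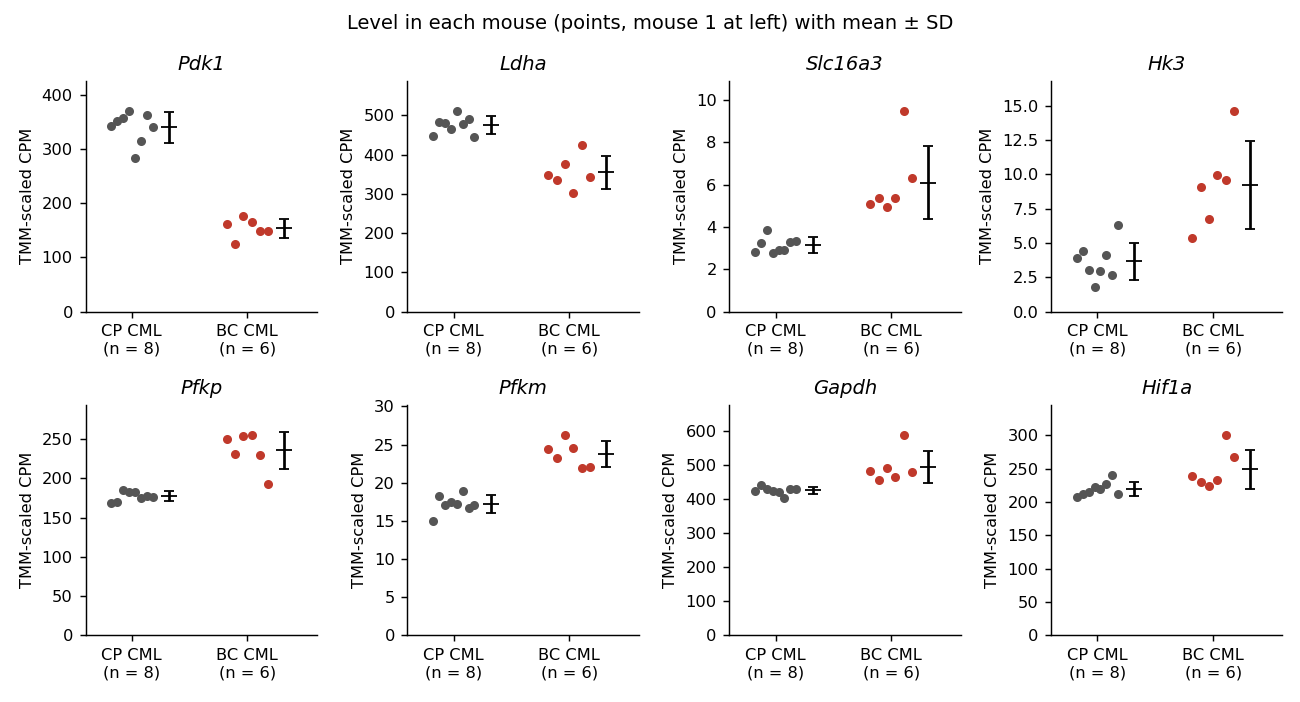
Level of 8 genes in each mouse as CPM scaled by the trimmed mean of M-values (TMM), with the group mean and SD beside the points; every vertical axis starts at 0. Pdk1 and Ldha lie lower in all 6 BC CML mice, Slc16a3, Pfkp, Pfkm and Gapdh lie higher in all 6, and Hk3 and Hif1a overlap between the groups.

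The bifunctional enzymes that set fructose 2,6-bisphosphate, the activator of phosphofructokinase 1, had 1 of 3 genes called. Pfkfb4 ran from 6.72 to 8.46 CPM in CP CML (median 7.55) and from 8.34 to 10.7 CPM in BC CML (median 8.70), and rose by 0.24 (SE 0.08, adjusted p = 0.018). Its ranges met at the edge, and without BC CML mouse 6, the highest, its adjusted p was 0.062. Pfkfb2 (-0.04) and Pfkfb3 (-0.05) were not called.

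At the entry to the mitochondrion, Pdk1 gave the smallest p of the 40 genes. Its product, an inducible kinase, phosphorylates and switches off pyruvate dehydrogenase. Pdk1 (chr2:71873224-71903858, mm10) ran from 283 to 370 CPM in CP CML (median 346) and from 125 to 176 CPM in BC CML (median 155). All 6 BC CML mice were below all 8 CP CML mice, and Pdk1 fell 2.21-fold (log2 fold change -1.14, SE 0.07, adjusted p = 4.1e-10). Without mice 5 and 6 the log2 fold change was -1.12. The other kinase genes went the other way. Pdk2 rose by 0.36 (SE 0.12, adjusted p = 0.012) from 10.02 ± 2.08 to 12.9 ± 1.33 CPM, and Pdk3 rose by 0.14 (adjusted p = 0.031) from 28.3 ± 1.17 to 31.2 ± 2.78 CPM. The Pdk3 call was lost without any 1 of CP CML mice 1 and 7 and BC CML mice 2, 4, 5 and 6 (adjusted p of 0.051 to 0.11).

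The kinase isoforms stood in other proportions in the 2 groups. Per kilobase, Pdk1 was 71.8 ± 1.70% of the 3 kinase genes in CP CML and 50.1 ± 3.83% in BC CML, Pdk3 was 21.5 ± 1.81% and 36.5 ± 3.65%, and Pdk2 was 6.67 ± 1.08% and 13.3 ± 1.47%. For each of the 3 shares the groups did not overlap. The summed level of the 3 was 66.5 ± 4.55 CPM per kb in CP CML and 43.1 ± 2.30 CPM per kb in BC CML.

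**Figure D3:**
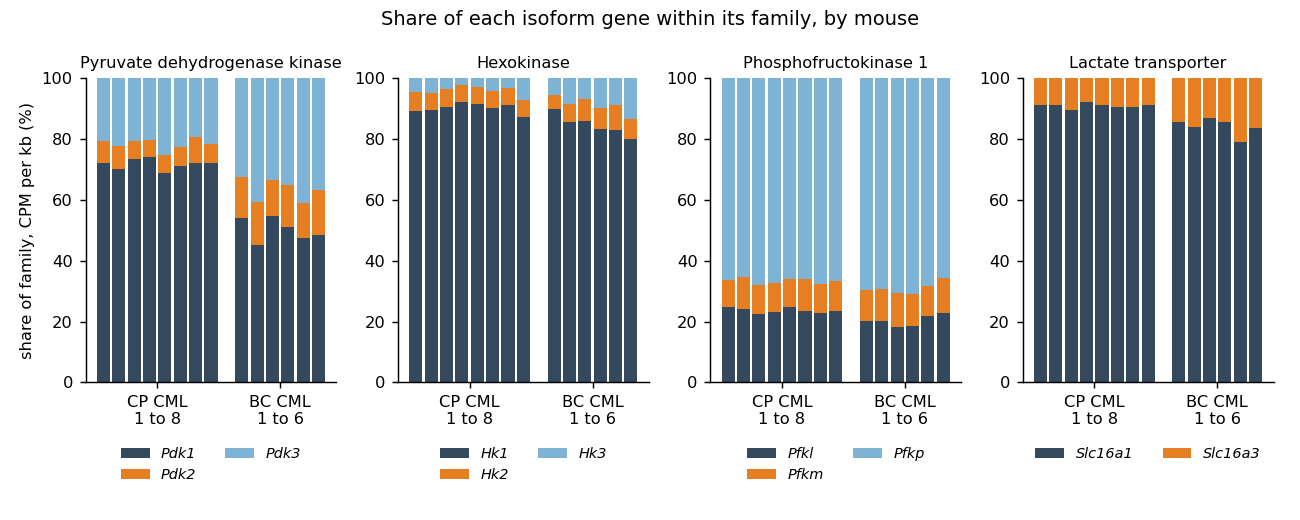
Share of each isoform gene in the summed level of its family, in CPM per kilobase of the count table's gene length, with 1 bar per mouse. Pdk1 takes 68.9 to 74.2% of its family in CP CML and 45.1 to 54.8% in BC CML; Slc16a3 takes 7.67 to 10.3% and 12.9 to 21.1% of its pair, and Hk3 takes 2.00 to 6.99% of hexokinase in CP CML and 5.32 to 13.5% in BC CML.

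The targets of these kinases and the carriers that feed them had 1 gene that rose and 1 that fell of 5. Of the mitochondrial pyruvate carrier, Mpc2 rose by 0.16 (adjusted p = 0.022) and Mpc1 was not called (0.13, adjusted p = 0.058). Of the dehydrogenase complex, Pdhb, the beta subunit of the first enzyme, fell by 0.12 (adjusted p = 0.018), while Pdha1, the alpha subunit that the kinases phosphorylate, and Dlat, the acetyltransferase, each differed by -0.06 and were not called. These calls depended on single mice. The adjusted p of Mpc2 was 0.064 without BC CML mouse 1 and 0.068 without mouse 5, that of Pdhb was 0.052 without BC CML mouse 2, and that of Mpc1 was 0.042, 0.031 and 0.033 without CP CML mouse 1, CP CML mouse 7 and BC CML mouse 2.

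The pentose phosphate branch, which makes NADPH and ribose, had 1 gene that rose and 1 that fell of 4. Pgd, its second dehydrogenase, ran from 65.5 to 77.7 CPM in CP CML (median 68.3) and from 67.9 to 90.2 CPM in BC CML (median 81.5). The groups overlapped, and Pgd rose by 0.21 (SE 0.06, adjusted p = 0.0062). G6pdx, the first dehydrogenase, fell by 0.16 (adjusted p = 0.026), a call lost without CP CML mouse 8 (0.052), BC CML mouse 1 (0.058) or BC CML mouse 4 (0.069). Tkt (0.05) and Taldo1 (0.08), which shuffle the sugars back to glycolysis, were not called.

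Of the regulators, Hif1a, the oxygen-regulated subunit of HIF-1, ran from 207 to 241 CPM in CP CML (median 218) and from 225 to 301 CPM in BC CML (median 236). The groups overlapped, and Hif1a rose by 0.18 (SE 0.06, adjusted p = 0.012). Mice 5 and 6 were the highest, and without both the log2 fold change was 0.07 (adjusted p = 0.13). Myc was at 124 ± 15.4 CPM and 126 ± 29.1 CPM (log2 fold change 0.02, SE 0.13). Txnip, which restrains glucose uptake and answers glucose through the factor MondoA, was at 768 ± 281 CPM and 897 ± 162 CPM and was not called (0.22, SE 0.22). Single CP CML mice reached from 511 to 1259 CPM for Txnip, and its log2 fold change was 0.36 without CP CML mouse 7, the highest (adjusted p = 0.11), and 0.16 without CP CML mouse 5, the lowest (adjusted p = 0.55). Over all alternative fits the largest log2 fold change of Txnip was 0.40 and its smallest adjusted p 0.090. Of the annotated exon bases of Txnip, 19.4% are covered by Gm15441 on the opposite strand, and the strand setting of the counting is not given in the sources used here. Other members had such overlap too. It was 23.1% for Mpc1, 16.1% for Pdha1, 13.6% for G6pdx and 11.5% for Gpi1 on the opposite strand. On the same strand it was 17.4% for Pfkfb2, 15.3% for Pkm and 10.2% for Pfkm.

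**Figure D4:**
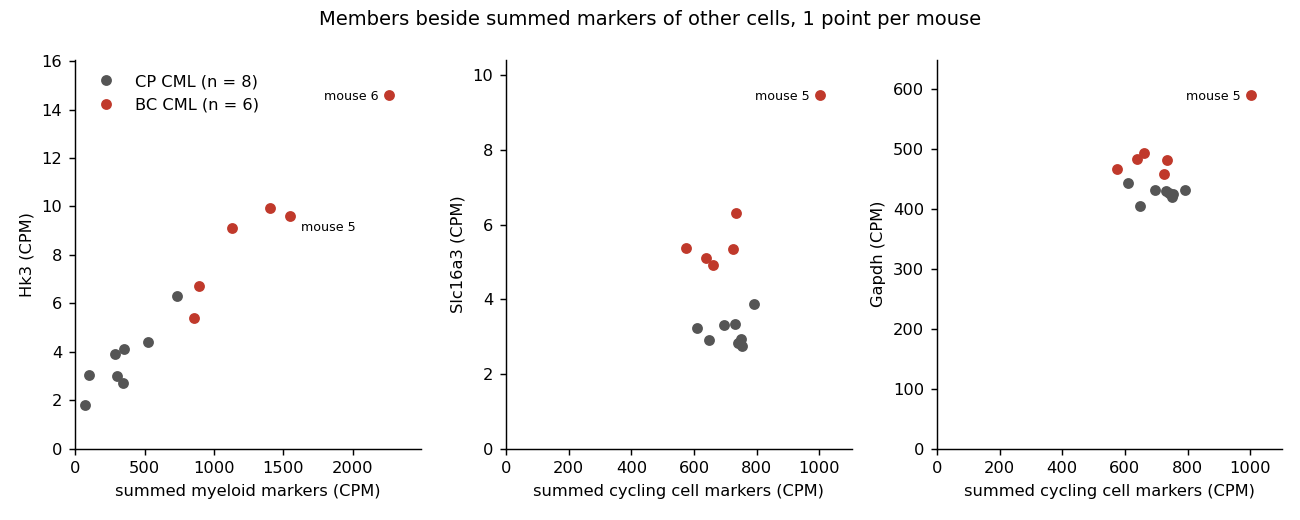
Members beside summed markers of other cells, 1 point per mouse, in CPM on axes that start at 0: Hk3 against 17 myeloid markers, and Slc16a3 and Gapdh against 12 cycling cell markers. The mouse with the highest myeloid sum of each group also has its highest Hk3, though not every mouse keeps that order, and BC CML mouse 5 is the highest on both axes for Slc16a3 and Gapdh against the cycling sum.

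The replicates also differed in spread. BC CML mouse 5 was the highest of its group for 20 of the 40 genes, and BC CML mouse 6 for 8. The median coefficient of variation over the 40 genes was 6.44% in CP CML and 10.1% in BC CML, and it was larger in BC CML for 33 genes.

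Around the 40 genes, 83 others of the same pathways were read from the same fit, 62 of which passed the filter; 23 rose and 16 fell, or 62.9% called against 65.2% of all tested genes. Among 34 tested genes of glycolysis, pyruvate and pentose phosphate metabolism, 12 rose and 7 fell (55.9% called). Slc2a6, a glucose transporter gene named after its values were seen, rose by 1.66 (SE 0.27, adjusted p = 3.0e-05) at a low level, 0.58 ± 0.20 and 1.85 ± 0.68 CPM. Pdp2, a phosphatase that reverses what the pyruvate dehydrogenase kinases do, ran from 16.1 to 22.2 CPM in CP CML and from 9.54 to 12.7 CPM in BC CML. It fell by 0.80 (SE 0.08, adjusted p = 2.2e-07) with no overlap between the groups. Pdp1, the other phosphatase gene, was at 16.5 ± 1.88 and 17.8 ± 1.42 CPM and was not called (0.11, adjusted p = 0.21). The other 4 falls named, the largest after Pdp2 among genes of at least moderate level, were Gpd1l, a glycerol 3-phosphate dehydrogenase homolog (-0.55), Pfkfb1 (-0.50), the sedoheptulose kinase gene Shpk (-0.47) and Rpia, the ribose 5-phosphate isomerase (-0.46).

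HIF-1 and MondoA were followed through their partners and targets. Of 16 tested partners and regulators 5 rose and 6 fell (68.8% called), and of 12 tested HIF-1 targets outside glycolysis 6 rose and 3 fell (75% called), against 32.6% higher and 32.7% lower, or 65.2% called, of all tested genes. Arnt, the partner of Hif1a, and Egln1, a prolyl hydroxylase that marks Hif1a for destruction, were not called (-0.04 and 0.01). Egln3, a hydroxylase that HIF-1 itself induces, rose by 0.67 (SE 0.13, adjusted p = 0.00015), and Vhl, which recognizes the marked protein, fell by 0.22 (adjusted p = 0.0052). Vegfa, the angiogenic factor, rose by 2.88 (SE 0.19, adjusted p = 5.8e-10) from 0.80 to 2.59 CPM in CP CML to 7.73 to 14.6 CPM in BC CML. Anxa2, a membrane-binding annexin, rose by 1.12, and Ddit4, an inhibitor of mTORC1, rose by 0.94. Vegfa and Anxa2 are also expressed by myeloid cells, whose part was not tested. The other called genes of the target list, given to complete it, were Bnip3 (0.65), Ndrg1 (0.88) and Higd1a (0.37), which rose, and Bnip3l (-0.26), Kdm3a (-0.25) and Ero1l (-0.25), which fell.

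Arrdc4 and Txnip are the pair of arrestin genes that MondoA is known to induce. Arrdc4 ran from 2.96 to 6.18 CPM in CP CML and from 22.8 to 39.3 CPM in BC CML, and rose by 2.76 (SE 0.17, adjusted p = 7.2e-10). Mlxip, which encodes MondoA, was not called (0.03), and its partner Mlx fell by 0.26 (adjusted p = 0.00014) with no overlap between the groups. Mxd4, an antagonist in the same Max network, rose by 1.44 (adjusted p = 2.9e-10).

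**Figure D5:**
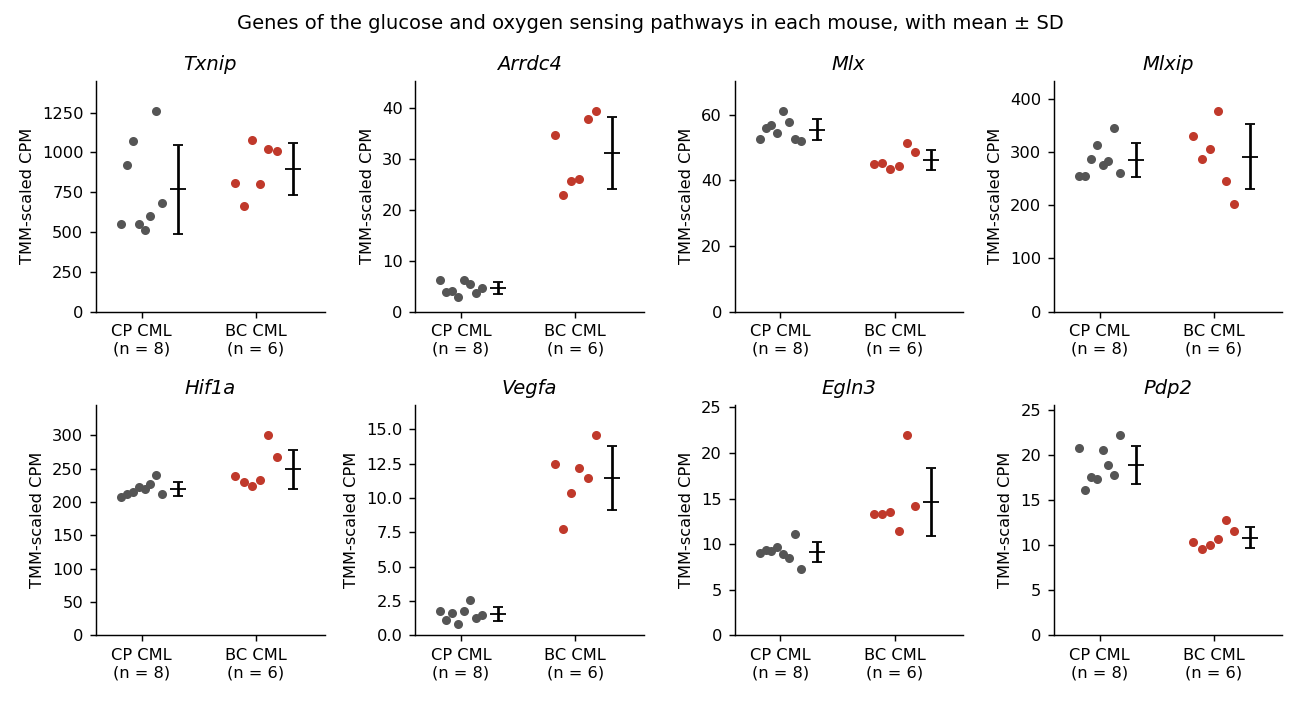
Level of 8 genes of glucose and oxygen sensing in each mouse (CPM, axes from 0), with mean and SD. Arrdc4, Vegfa and Egln3 lie higher and Mlx and Pdp2 lower in all 6 BC CML mice, while Txnip, Mlxip and Hif1a overlap between the groups.

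The promoters of the members were searched for ACGTG on either strand, the core that HIF-1 binds, and for CACGTG, the E-box bound by Myc and Max, which contains it. RefSeq gave a promoter (250 bases before to 50 after a gene's start, GRCm38.p6) that matched the table's start within 1000 bases for 36 of the 40 genes. ACGTG was in 16 of the 36, or 44.4%, against 26.1% of the 9177 promoters of tested genes and 21.3% of the 16796 of all genes in the table. CACGTG was in 4, or 11.1%, against 10.4% of the promoters of tested genes and 8.22% of all. The promoters of all 6 members without overlap between the groups are shown, both motifs in capitals. These are Ldha (chr7:46845554-46845853, fell, 3 runs in capitals), Pdk1 (chr2:71872974-71873273, fell, none), Slc16a3 (chr11:120948817-120949116, rose, 2 runs), Pfkm (chr15:98092339-98092638, rose, 2 runs), Pfkp (chr13:6648722-6649021, rose, none) and Gapdh (chr6:125165724-125166023, rose, 1 run). Pfkp and Gapdh are on the minus strand and the others on the plus strand.
Ldha: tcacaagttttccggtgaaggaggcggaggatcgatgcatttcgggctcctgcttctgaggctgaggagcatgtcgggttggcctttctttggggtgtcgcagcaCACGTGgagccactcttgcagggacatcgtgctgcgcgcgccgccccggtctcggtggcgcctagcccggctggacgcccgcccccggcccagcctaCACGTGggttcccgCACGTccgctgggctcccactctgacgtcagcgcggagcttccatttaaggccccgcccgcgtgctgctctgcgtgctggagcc
Pdk1: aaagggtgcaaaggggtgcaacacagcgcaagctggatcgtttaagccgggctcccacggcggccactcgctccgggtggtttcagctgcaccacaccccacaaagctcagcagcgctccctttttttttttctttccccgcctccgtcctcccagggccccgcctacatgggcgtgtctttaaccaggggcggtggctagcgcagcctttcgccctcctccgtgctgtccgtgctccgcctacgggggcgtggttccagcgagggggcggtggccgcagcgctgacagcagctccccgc
Slc16a3: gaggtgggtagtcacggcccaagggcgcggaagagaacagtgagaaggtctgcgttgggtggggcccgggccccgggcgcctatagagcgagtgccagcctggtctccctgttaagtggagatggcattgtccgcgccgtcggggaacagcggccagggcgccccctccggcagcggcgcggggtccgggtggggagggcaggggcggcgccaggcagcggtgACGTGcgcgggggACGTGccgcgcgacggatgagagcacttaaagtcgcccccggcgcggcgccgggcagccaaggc
Pfkm: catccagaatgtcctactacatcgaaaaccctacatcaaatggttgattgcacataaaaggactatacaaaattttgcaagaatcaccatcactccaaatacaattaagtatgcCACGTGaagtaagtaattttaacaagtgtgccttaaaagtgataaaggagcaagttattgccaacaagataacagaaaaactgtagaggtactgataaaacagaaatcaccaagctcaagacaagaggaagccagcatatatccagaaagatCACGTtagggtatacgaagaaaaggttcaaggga
Pfkp: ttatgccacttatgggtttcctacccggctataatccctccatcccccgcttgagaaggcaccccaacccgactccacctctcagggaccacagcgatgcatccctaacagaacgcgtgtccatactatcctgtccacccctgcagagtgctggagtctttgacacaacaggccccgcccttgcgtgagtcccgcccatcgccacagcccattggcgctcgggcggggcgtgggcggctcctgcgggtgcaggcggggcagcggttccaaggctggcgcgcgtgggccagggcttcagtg
Gapdh: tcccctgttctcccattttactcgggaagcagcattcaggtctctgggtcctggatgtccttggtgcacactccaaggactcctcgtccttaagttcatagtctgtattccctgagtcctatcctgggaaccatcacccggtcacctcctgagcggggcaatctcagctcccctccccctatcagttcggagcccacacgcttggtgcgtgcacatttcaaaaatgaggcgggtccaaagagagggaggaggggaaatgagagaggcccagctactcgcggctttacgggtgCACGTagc
A match is a run of letters and not a site in use.

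Matches to the miR-142 seeds were counted in the members and in all tested genes. The difference in shares was not tested, and the lengths of the regions searched were not compared. In the longest annotated 3′ untranslated region of each gene (GENCODE M21), a match to miR-142a-3p was in 2 of 40 members, or 5%, against 13.3% of the 11515 tested genes with such a region, and a match to miR-142a-5p in 7, or 17.5%, against 24%. No member had an 8-base match to either, against 3.28% and 5.26% of tested genes. Pdk1, Ldha and Slc16a3 had no match. The 2 members with a match to bases 2 to 8 of miR-142a-5p were Pfkp, which rose, and Pkm, which was not called, and Hif1a, which rose, had 2 matches to bases 2 to 7 followed by an A. These are shown with the match in capitals.
Pfkp: tatttatcagcACTTTATggaagcaagcat
Pkm: tggaaaccctgACTTTATcacagaagggcg
Hif1a, first: ctgtatggtttCTTTATAtgggtaaagcca
Hif1a, second: aaatttaagttCTTTATAaaaattagattg
Slc2a3 and Pfkfb2 held the matches to miR-142a-3p, and Slc2a3, Slc16a1, Pfkfb3 and Pdk3 the other matches to miR-142a-5p. Of the 8 genes with any match, Pfkp, Pdk3 and Hif1a rose, Slc2a3 fell and the others were not called, against 32.6% higher and 32.7% lower (65.2% called) of all tested genes.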

How the data were processed

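Spleen T cells of 14 mice (8 CP CML, 6 BC CML) were profiled by mRNA sequencing. The authors trimmed reads with Trimmomatic and fastp, aligned them with STAR 2.6.0 and made gene counts with HTSeq 0.11.1; the deposited values are these raw read counts per gene with gene coordinates, and the coordinates are those of mm10. The submitters' processing notes name the tools; the annotation and strand setting are not given in the sources used here. Groups came from the sample titles. Counts were tested with edgeR 4.0.16 in R 4.3.3 (filterByExpr, TMM, robust quasi-likelihood test, Benjamini-Hochberg over 12248 genes). The test was also run on simulated counts in which few genes changed, unlike here. That run therefore cannot speak for the calls in these data. CPM are on TMM library sizes. Replicates of a group differed by more than sampling noise (chi-square per degree of freedom of at least 2.99). The comparison was repeated with edgeR's likelihood ratio test, with DESeq2 1.42.0, with other scalings and filters, with a replicate block and without single mice. Values of every mouse are summarised for members called with a log2 fold change of at least 0.5 and for the lowest p of each other role; of the wider lists, the 5 largest rises and 5 largest falls among called genes whose mean log2 CPM reached 2, together with the named HIF-1 and MondoA partners. Members, lists and rules were chosen with earlier results of these data known. Motifs and seed matches were counted with Python 3.11.15; the 1000-base limit for promoters was set after seeing the data.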

Additional observations from a re-analysis of the deposited data

Results flagged for a closer look

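Each value here lies apart from the others of its group, with a gap that is large against the range of the group. Of 112 groups of values examined, 11 held such a mouse, where chance alone would give about 5.6. BC CML mouse 5 was the highest of its group for 4 of them: Aldoa at 343 CPM (next 297), Gapdh at 590.0 CPM (next 493.4), Slc16a3 at 9.48 CPM (next 6.32) and Egln3 at 22.0 CPM (next 14.2). This mouse, whose sample description alone ends in RP with no stated meaning, also had the highest cycling marker sum, and its part in these values was not tested. BC CML mouse 6 was the highest for Pfkfb4 at 10.7 CPM (next 9.04), and BC CML mouse 2 the lowest for Pdhb at 62.1 CPM (next 68.1). In CP CML, mouse 2 was the highest for Gpi1 at 375 CPM (next 355), Pgk1 at 126 CPM (next 116) and Pdk3 at 30.9 CPM (next 28.8). CP CML mouse 5 was the highest for Pfkl at 55.4 CPM (next 50.7), and CP CML mouse 7 the lowest for Aldoa at 238 CPM (next 266).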

How the results depend on the processing

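Of the 24 called members, 18 stayed past the threshold under all 7 alternatives and 16 also in all 14 fits that left out 1 mouse; 0 changed direction in these fits. Of the 16 uncalled members, 4 passed in at least 1 of them (Hk1, Mpc1, Pgk1, Ldhb). Leaving out 1 mouse gave 14 to 18 members that rose and 5 to 7 that fell, a median log2 fold change of 0.073 to 0.108, and 22 to 24 rises and 15 to 18 falls in the wider lists. Equal replicate numbers did not mark paired mice (correlations of their deviations from -0.27 to 0.36 over 6 pairs, mean -0.024). With the number as a replicate block, 13 members rose and 5 fell (45% called, against 59.7% of all tested genes in that fit) with a median of 0.077, and 23 wider genes rose and 15 fell; Slc2a1, Eno3, Mpc2, Pdhb, Pdk3 and G6pdx lost their call (adjusted p of 0.062 to 0.111). Leaving out both BC CML mice 5 and 6, an alternative chosen after seeing the data, gave 11 rises.

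Sign changes were confined, in the alternatives run, to values near 0 that were not called. With library size alone, Slc16a1 was at -0.0045 and Egln1 at -0.0027. With the block, Myc was at -0.013 and Egln1 at -0.015. Leaving out 1 mouse, Slc16a1 ran from -0.030 to 0.038, Myc from -0.099 to 0.104, Egln1 from -0.011 to 0.033, Mlxip from -0.054 to 0.119, Pfkfb2 from -0.084 to 0.0088 and Eno1 from -0.059 to 0.013. Without mice 5 and 6, Slc16a1 was at -0.046, Pfkfb2 at 0.020, Tkt at -0.022, Arnt at 0.011 and Egln1 at -0.012. Among the 9177 promoters of tested genes alone, ACGTG was in 26.1% and CACGTG in 10.4%. With transcript lengths in place of the count table's gene lengths, an alternative chosen after seeing the data, 5 of 22 isoform shares moved by over 1.5 times (Slc2a1, Hk2, Hk3, Slc16a3 and Pfkfb2). Low counts limit Aldoc, Hk3 and Slc16a3 (at least 6, 36 and 46 reads per library). The design gives no library in which genotype and disease stage differ separately.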

Other observations

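Genes that work beside the lactate transporters also differed; these were named after their values were seen. Bsg, the chaperone that brings MCT1 and MCT4 to the membrane, rose by 0.75 on the log2 scale (SE 0.04, adjusted p = 1.1e-10), from 90.9 ± 6.04 CPM (SD, n = 8) in CP CML to 153 ± 6.41 CPM (SD, n = 6) in BC CML. Emb, a second chaperone of this kind, rose by 0.66 (SE 0.06, adjusted p = 1.9e-08), from 345 ± 17.98 to 543 ± 59.1 CPM. Slc16a7 (MCT2) rose by 1.74 (SE 0.26, adjusted p = 1.1e-05) at a low level, 0.51 ± 0.21 and 1.71 ± 0.49 CPM. For each of the 3 genes the groups did not overlap, as was so for 36.9% of all tested genes (19.3% with BC CML above).

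Other genes of the wider lists, of which 62.9% were called against 65.2% of all tested genes, are also given here after their values were seen. Pcx, which carboxylates pyruvate to oxaloacetate, rose by 0.76 (SE 0.13, adjusted p = 7.6e-05), and the malic enzyme gene Me2 rose by 0.31 (SE 0.04, adjusted p = 1.2e-06). Gpd2, the mitochondrial glycerol 3-phosphate dehydrogenase, rose by 0.48 (SE 0.07, adjusted p = 6.6e-06). Tigar, a fructose bisphosphatase that turns sugar toward the pentose phosphate branch, fell by 0.44 (SE 0.06, adjusted p = 3.5e-06), and Epas1, the HIF-2 alpha subunit, rose by 0.86 (SE 0.09, adjusted p = 2.0e-07) from 15.9 ± 0.99 to 29.0 ± 5.24 CPM.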
